A study of Mus musculus with 9 samples.

Results

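Acetyl-CoA is the activated form of acetate through which sugars, fatty acids and ketone bodies enter the citrate cycle, and from which fatty acids, sterols and acetylated proteins are made. The 10 genes Acly, Acss1, Acss2, Slc25a1, Cs, Pdha1, Dlat, Crat, Acat1 and Acot12, which make, move or release acetyl-CoA, acetate and citrate, were taken by name from a count table of 24421 genes. All 10 were in the table. After genes with few reads were set aside, 12575 genes were tested, among them 8 of the 10. Acss1 and Acot12 had too few reads for a test and are described by their counts.

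Acetyl-CoA cannot cross the inner mitochondrial membrane by itself. The pyruvate dehydrogenase complex, with subunits encoded by Pdha1 and Dlat, makes it from pyruvate inside mitochondria, citrate synthase (Cs) joins it to oxaloacetate, the carrier Slc25a1 brings the resulting citrate to the cytosol, and ATP citrate lyase (Acly) splits that citrate into acetyl-CoA and oxaloacetate again. The synthetases Acss2 and Acss1 instead activate free acetate in the cytosol and nucleus or in mitochondria, the thioesterase Acot12 releases acetate from cytosolic acetyl-CoA, carnitine acetyltransferase (Crat) interchanges acetyl-CoA with acetylcarnitine, and the thiolase Acat1 makes or splits acetoacetyl-CoA in mitochondria. Tumor cells use these routes to feed lipid synthesis and histone acetylation as well as respiration.

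The 9 RNA-seq libraries came from 4T1, a line of mouse mammary carcinoma cells, cultured for 5 days in RPMI medium with FBS under 3 conditions with 3 libraries each. The conditions were spheroids on soft agar without added palmitate (3D), spheroids with 75 µM palmitate (3D palmitate) and monolayers with 75 µM palmitate (2D palmitate), with the palmitate given on albumin and the culture without it given albumin and solvent. No monolayer without added palmitate was analysed here, and a single cell line was used, so palmitate was compared in spheroids alone and culture form with palmitate present alone. Both comparisons use the same 3D palmitate libraries. The labels do not say whether the libraries of a group came from separate cultures, so the p-values below measure the spread between these libraries, which may be technical.

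Library totals ranged from 6595514 to 31177756 counts, and 3D palmitate replicate 3 was the smallest. The 3D palmitate libraries also differed more among themselves than those of the other groups, with a chi-square per gene of 16.4 to 19.7 for their pairs and of 3.89 to 9.30 for the other pairs. All 7 epithelial markers were present, with a summed level of 4646 to 4676 CPM (counts normalized to library size with edgeR's TMM method) in 3D, 4553 to 4745 in 3D palmitate and 3332 to 3574 in 2D palmitate. Among them Cldn4 had its highest mean in 2D palmitate (222 CPM, beside 116 in 3D and 125 in 3D palmitate). Each of the others had its lowest mean there, as Epcam did (263 CPM, beside 823 and 707). Of 11 markers of leukocytes, endothelium and fibroblasts, Cd3e, Adgre1 and Lum were at 0 in all 9 libraries and the others at 11 counts or fewer, except Pdgfra. Pdgfra made up nearly all of their summed level, which was 91.4 to 106 CPM in 3D, 92.4 to 111 in 3D palmitate and 30.4 to 31.8 in 2D palmitate, and its part in the results was not tested. Fewer cells that express a gene and less RNA of it per cell cannot be told apart in these bulk libraries.

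The promoter sequences below are of Slc25a1, Cs and Dlat, the genes with the largest differences between spheroids and monolayers among the tested members, and of Acly, the next step after Slc25a1, which did not pass the test in either comparison. Each line gives the 250 bases before the gene's start in the RefSeq annotation of GRCm38.p6, in the direction of the gene, at chr16:17928220-17928469 (minus strand) for Slc25a1, chr10:128337477-128337726 (plus strand) for Cs, chr9:50659781-50660030 (minus strand) for Dlat and chr11:100528001-100528250 (minus strand) for Acly. Capitals mark matches, on either strand, to CCAAT (the NF-Y box), GGGCGG (the GC box) or CACGTG (the E-box).
Slc25a1: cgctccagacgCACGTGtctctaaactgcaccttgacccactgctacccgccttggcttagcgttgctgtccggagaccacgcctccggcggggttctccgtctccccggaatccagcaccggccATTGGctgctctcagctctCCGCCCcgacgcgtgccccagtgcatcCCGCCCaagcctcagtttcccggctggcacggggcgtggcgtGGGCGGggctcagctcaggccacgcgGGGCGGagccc
Cs: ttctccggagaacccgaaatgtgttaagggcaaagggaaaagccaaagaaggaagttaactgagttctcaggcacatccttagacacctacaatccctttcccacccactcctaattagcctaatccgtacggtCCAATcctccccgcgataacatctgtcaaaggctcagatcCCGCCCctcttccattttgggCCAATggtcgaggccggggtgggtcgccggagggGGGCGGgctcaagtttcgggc
Dlat: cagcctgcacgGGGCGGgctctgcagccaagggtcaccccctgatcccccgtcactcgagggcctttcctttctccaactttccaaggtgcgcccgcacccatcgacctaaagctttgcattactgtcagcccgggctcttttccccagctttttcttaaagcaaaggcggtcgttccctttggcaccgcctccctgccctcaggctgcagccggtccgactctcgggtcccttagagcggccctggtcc
Acly: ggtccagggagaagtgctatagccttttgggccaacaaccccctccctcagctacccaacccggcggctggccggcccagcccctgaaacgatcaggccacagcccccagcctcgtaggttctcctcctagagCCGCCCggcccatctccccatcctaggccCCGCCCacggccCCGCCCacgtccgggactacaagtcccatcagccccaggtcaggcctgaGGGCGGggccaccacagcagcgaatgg

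The Slc25a1 sequence held 4 GC boxes, 1 NF-Y box and 1 E-box, that of Cs held 2 GC boxes and 2 NF-Y boxes, that of Dlat held 1 GC box, and that of Acly held 4 GC boxes. Sequences were found for 8 of the 10 genes, without Crat and Acat1. Of 32851 RefSeq promoters cut to the same length, 32.7% held a GC box, 33.8% an NF-Y box and 6.02% an E-box. No match to TCACNCCAC, the core of a sterol regulatory element, or to TCAAGGTCA, bound by estrogen-related receptors, stood in any of the 8, and these letters stood in 1.05% and 0.387% of all promoters. These matches are descriptions of letters and were not tied to the binding of any factor.

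Slc25a1, Dlat, Cs, Acat1 and Acss2 were lower in spheroids than in monolayers when both had palmitate, at 0.453 to 0.812 times the monolayer level. Pdha1, Acly and Crat did not pass the test. Thus 5 of the 8 tested members fell and 0 rose, at a Benjamini-Hochberg adjusted p-value under 0.05 over all genes in edgeR's quasi-likelihood test. In all, 68.3% of the 12575 genes passed this test, 34.5% higher and 33.9% lower in spheroids, so that the share of 62.5% among the members is near the share of all genes. The median log2 fold change of the 8 was -0.33, beside 0.01 for all tested genes. The 3D palmitate and 2D palmitate libraries did not overlap in the same 5 genes, and did not overlap in 69.4% of all genes.

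**Figure D1:**
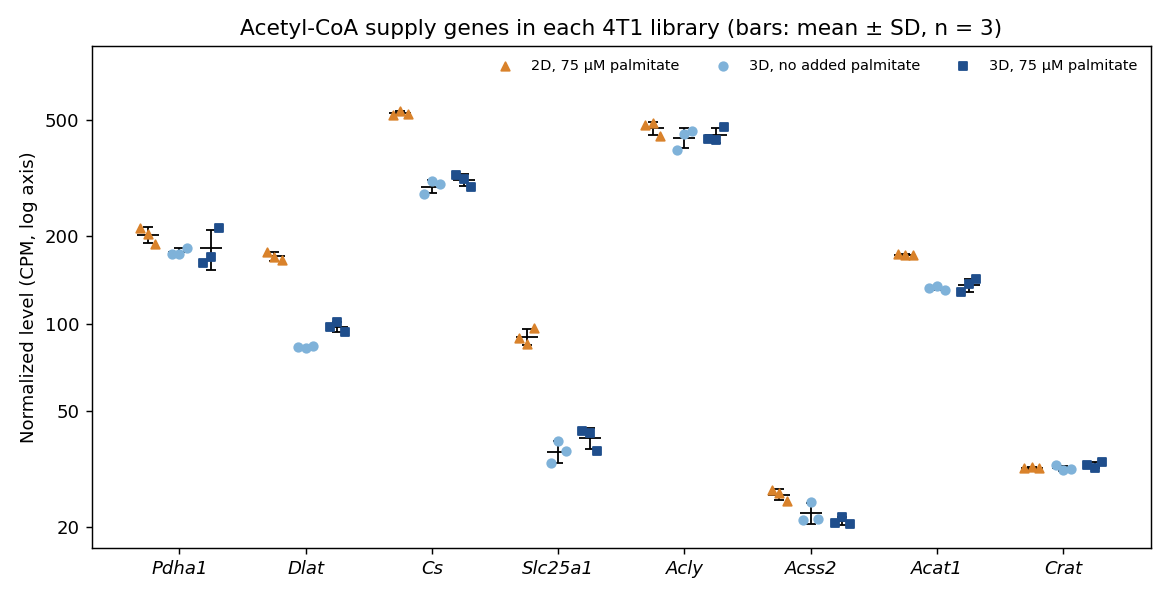
Normalized level (CPM, log axis) of the 8 tested genes in each library, with points for single libraries and bars for the mean ± SD of 3 libraries per condition. Dlat, Cs and Slc25a1 lie in separate bands for monolayers (orange) and spheroids (blue), while Crat lies between 31.4 and 33.5 CPM in all 9 libraries.

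Pdha1 and Dlat encode parts of the pyruvate dehydrogenase complex, which links glycolysis to mitochondrial acetyl-CoA. Dlat, its dihydrolipoamide acetyltransferase, on whose lipoyl groups the acetyl unit is formed, is at chr9:50634633-50659780 (GRCm38, minus strand). Its level was 177, 170 and 165 CPM in the 2D palmitate libraries, 97.6, 101 and 93.7 in 3D palmitate and 83.2, 82.7 and 83.6 in 3D. Every monolayer library thus lay above every spheroid library. In 3D palmitate against 2D palmitate, Dlat fell with a log2 fold change of -0.80 ± 0.0592 (SE, n = 3 per group), or 0.574 times, with an edgeR adjusted p of 2.45e-08.

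Pdha1, the alpha subunit of the pyruvate-decarboxylating enzyme, is at chrX:160122209-160138413 (minus strand). Its CPM values were 214, 203 and 188 in 2D palmitate, 161, 169 and 214 in 3D palmitate and 174, 173 and 182 in 3D. Replicate 3 of 3D palmitate, the smallest library, stood at the upper end of the monolayer range, whereas the other spheroid libraries lay below all monolayers. Over all libraries, the log2 fold change of -0.16 between spheroids and monolayers with palmitate had a 95% interval of -0.36 to 0.03 and an edgeR adjusted p of 0.130. Without 3D palmitate replicate 3 it was -0.29 with an adjusted p of 0.000497, and without the filter on low counts it was -0.19 with an adjusted p of 0.0269. Pdha1 did not pass in any other alternative fit. The change was -0.08 without 3D palmitate replicate 1 (edgeR adjusted p = 0.410) and -0.12 without replicate 2 (0.355). With the trend with GC content and length of the transcripts removed it was -0.09 (0.210). Map3k15, on the opposite strand, shares 603 exon bases with Pdha1 (16.1% of its exon length). Map3k15 had 3 to 15 counts per library, beside at least 1396 for Pdha1, and a loss of shared reads was not tested. The intronless copy Pdha2 had 0 counts.

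The balance of Dlat to Pdha1 within a library does not depend on how libraries were scaled. The ratio of their counts was 0.826, 0.839 and 0.879 in 2D palmitate, 0.607, 0.601 and 0.439 in 3D palmitate and 0.478, 0.478 and 0.459 in 3D. Spheroids with palmitate lay below monolayers in all libraries, by 0.64 on the log2 scale, with an exact permutation p of 0.1 (two-sided, n = 3 per group, adjusted p = 0.2 over 6 ratio tests), which is the smallest p that 3 libraries against 3 allow. Between spheroids with and without palmitate the log2 ratio differed by 0.20 and the groups overlapped (exact permutation p = 0.4, n = 3 per group), since 3D palmitate replicate 3 lay below all 3D libraries and the other 2 above them.

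Cs makes citrate from acetyl-CoA and oxaloacetate, the entry step of the citrate cycle. It is at chr10:128337734-128362479 (plus strand). The monolayers with palmitate had 522, 537 and 524 CPM, the spheroids with palmitate 325, 314 and 295, and the spheroids without it 278, 308 and 302. All 6 spheroid libraries lay below all 3 monolayers and overlapped each other. The log2 fold change of Cs was -0.76 ± 0.0621 (SE, n = 3 per group) in 3D palmitate against 2D palmitate, or 0.591 times, with an edgeR adjusted p of 7.19e-08. Csl, a similar intronless gene, had 7 to 64 counts per library, and reads that fit both genes could have been lost or split.

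Slc25a1, the mitochondrial citrate carrier, exports citrate in exchange for malate and is at chr16:17925223-17928219 (minus strand). It had the largest difference of the 8 genes between spheroids and monolayers. Its level was 89.2, 85.2 and 96.6 CPM in 2D palmitate, 42.7, 42.2 and 36.6 in 3D palmitate and 33.2, 39.4 and 36.4 in 3D. The monolayers were above all spheroids, and the spheroid groups overlapped. Relative to 2D palmitate, Slc25a1 fell by 1.14 on the log2 scale in 3D palmitate, with an SE of 0.0822 (n = 3 per group) and an edgeR adjusted p of 1.87e-08, to 0.453 times the monolayer level.

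Acly, at chr11:100476353-100528000 (minus strand), takes up the exported citrate and is the main source of cytosolic acetyl-CoA in many cells. The values were 480, 488 and 442 CPM in 2D palmitate, 430, 427 and 473 in 3D palmitate and 396, 449 and 459 in 3D. The 3 groups overlapped each other. In 3D palmitate against 2D palmitate its log2 fold change was -0.09, with a 95% interval of -0.24 to 0.07 and an edgeR adjusted p of 0.304. After correction of the libraries for GC content and length of the transcripts, the same change was -0.22 with an adjusted p of 0.00180. Slc25a1 counts were 0.175 to 0.219 times the Acly counts in 2D palmitate, 0.0775 to 0.0993 times in 3D palmitate and 0.0793 to 0.0879 times in 3D. Relative to Cs, the gene of the step before it, Slc25a1 counts were 0.159 to 0.185 times in 2D palmitate, 0.124 to 0.134 times in 3D palmitate and 0.119 to 0.128 times in 3D. These ratios to Acly and Cs are descriptions and were not tested.

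The genes of the acetate route differed widely in level. Acss2, which activates acetate in the cytosol and nucleus, is at chr2:155517948-155585724 (plus strand) and was at 26.8, 26.2 and 24.6 CPM in 2D palmitate, 20.6, 21.7 and 20.5 in 3D palmitate and 21.2, 24.4 and 21.3 in 3D. Spheroids with palmitate lay below all monolayers, and 3D replicate 2 came nearest to the monolayers among the spheroids. Acss2 fell by 0.30 on the log2 scale in 3D palmitate against 2D palmitate (SE 0.0834, n = 3 per group, edgeR adjusted p = 0.00523), or to 0.812 times. Its exons share 395 bases with Gss, 197 with Ggt7 and 335 with Acss2os, all on the opposite strand, and the strand setting of the counting is not given in the sources used here. Gss had 137 to 847 counts per library, beside 134 to 819 for Acss2, and the part of shared reads in the Acss2 values was not tested.

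Acss1, the mitochondrial acetate-activating enzyme at chr2:150618105-150668500 (minus strand), had 1 count in the 9 libraries together, in 3D palmitate replicate 2. In 3D and in 2D palmitate it had 0 counts, which allows a level of up to 0.0545 and 0.0456 CPM (3 counts over the group's libraries, counting error only). Acot12, the cytosolic enzyme that splits acetyl-CoA into acetate and coenzyme A and is best known from liver, is at chr13:91741512-91786148 (plus strand). It also had 1 count in all, in 2D palmitate replicate 2, and its 0 counts in 3D and 3D palmitate allow up to 0.0545 and 0.0640 CPM. Neither gene was detectable above this floor in any condition, and a ratio of Acss1 to Acss2 was not computed.

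The RNA of the acetate route was set beside that of the citrate route, which does not measure the use of either source. Acss2 counts were 0.056, 0.0538 and 0.0557 times the Acly counts in 2D palmitate. They were 0.048, 0.051 and 0.0435 times in 3D palmitate and 0.0537, 0.0543 and 0.0463 times in 3D. The part of reads shared with Gss in these ratios was not tested. The 3D palmitate values lay below the 2D palmitate values and overlapped those of 3D. The log2 ratio differed by -0.22 between 3D palmitate and 2D palmitate (exact permutation p = 0.1, adjusted p = 0.2, n = 3 per group) and by -0.11 between 3D palmitate and 3D (exact permutation p = 0.3, adjusted p = 0.45).

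Acat1, the mitochondrial acetoacetyl-CoA thiolase used in ketone body and isoleucine breakdown, is at chr9:53580522-53610382 (minus strand). The monolayers had 173, 172 and 172 CPM, the spheroids with palmitate 128, 137 and 142, and the spheroids without it 133, 135 and 131. Monolayers were again above every spheroid library, and the 3D libraries lay inside the range of the 3D palmitate libraries. The log2 fold change in 3D palmitate against 2D palmitate was -0.35 ± 0.0597 (SE, n = 3 per group), or 0.784 times, with an edgeR adjusted p of 0.000110.

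Crat, at chr2:30400471-30415813 (minus strand), buffers acetyl-CoA by passing acetyl groups to carnitine. It was at 31.8, 32.1 and 31.9 CPM in 2D palmitate, 32.6, 32 and 33.5 in 3D palmitate and 32.6, 31.4 and 31.6 in 3D. All groups overlapped. Its log2 fold change in 3D palmitate against 2D palmitate was 0.03, with a 95% interval of -0.11 to 0.17 and an edgeR adjusted p of 0.698, and it was -0.09 with an adjusted p of 0.216 when the trend with GC content and length was removed. Per Slc25a1 count there were 0.357, 0.377 and 0.331 Crat counts in 2D palmitate, 0.764, 0.759 and 0.916 in 3D palmitate and 0.984, 0.797 and 0.867 in 3D. The ratio of the acetylcarnitine gene to the citrate carrier gene was therefore 2.29 times higher in 3D palmitate than in 2D palmitate, without overlap (exact permutation p = 0.1, adjusted p = 0.2, n = 3 per group), and the 3D palmitate and 3D values overlapped (exact permutation p = 0.5). On the opposite strand, Gm16323 shares 411 exon bases with Crat, or 7.63% of its exon length, and Dolpp1, with 86 to 487 counts per library beside 219 to 1002 for Crat, shares 59.

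**Figure D2:**
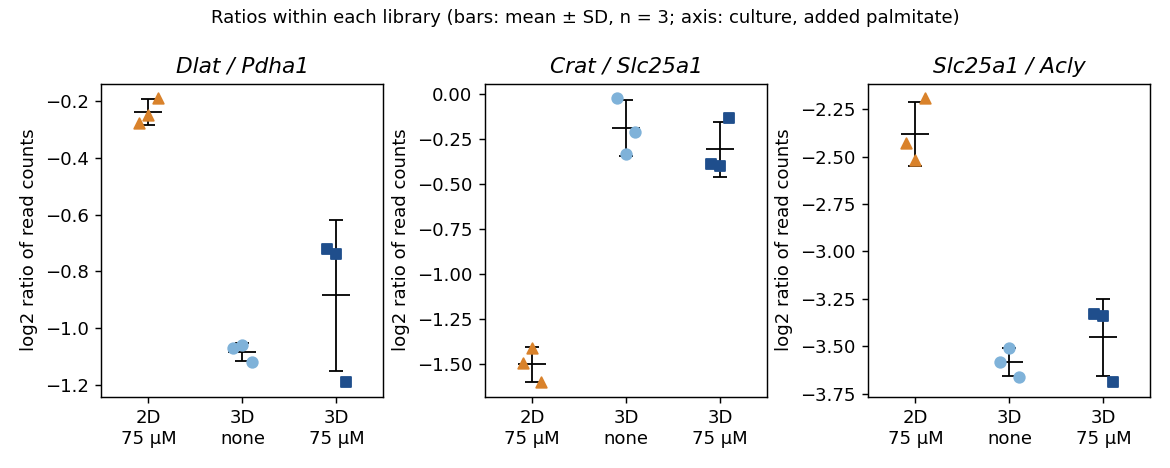
Log2 ratios of read counts of gene pairs within each library, for 2D palmitate, 3D and 3D palmitate, with points for libraries and bars for the mean ± SD of 3. Dlat to Pdha1 and Slc25a1 to Acly are highest in monolayers, Crat to Slc25a1 is lowest there, and 3D palmitate replicate 3 lies apart from the other 2 libraries of its group in each panel.

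Per kilobase of the longest annotated transcript, the order of levels was the same in both spheroid conditions. In 3D palmitate Cs (104 ± 5.01 CPM per kilobase, SD, n = 3) and Acly (100 ± 5.86) came first and overlapped, followed by Pdha1 (63.6, from 56.4 to 75.1), Acat1 (39.8 ± 2.16), Slc25a1 (24.3 ± 2.03) and Dlat (24.2 ± 0.963), which overlapped each other, then Crat (7.74 ± 0.185) and Acss2 (5.81 ± 0.184). In 2D palmitate no neighbors overlapped, and Cs (176 ± 2.81) lay above Acly (106 ± 5.55), while Slc25a1 (54.2 ± 3.48) lay above Acat1 (50.5 ± 0.211). With the total exon length of each gene in place of the longest transcript, Acly came before Cs and Dlat before Slc25a1 in spheroids, and Acat1 before Slc25a1 in monolayers.

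The effect of palmitate was compared in spheroids, and none of the 8 tested genes passed the test. In 3D palmitate against 3D, 0 of the 8 passed in edgeR, 1 had an unadjusted p under 0.05 and 1 passed in DESeq2, the same gene, Dlat. Of all 12575 genes 2.19% passed the edgeR test (1.38% higher and 0.811% lower with palmitate), 17.3% had an unadjusted p under 0.05 and 18.6% had groups without overlap. With scaling by library size alone, the split over all genes turned from 173 higher and 102 lower to 106 higher and 121 lower. The median log2 fold change of the 8 genes was 0.03, beside 0.01 for all tested genes.

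Dlat was at 83.2 ± 0.467 CPM (SD, n = 3) in 3D and at 97.6 ± 3.88 in 3D palmitate, and was the only member whose groups did not overlap in this comparison. Its log2 fold change was 0.23 with a 95% interval of 0.10 to 0.36, an unadjusted p of 0.00160 and an edgeR adjusted p of 0.0599, which misses the threshold. The adjusted p was 0.0197 in DESeq2, 0.00881 with the trend with GC content and length removed and 0.00875 without 3D palmitate replicate 3. Dlat missed the threshold in every other alternative fit. The edgeR adjusted p was 0.116 with no filter on low counts, 0.144 with a replicate block and 0.161 with the 2 groups alone. Without 3D palmitate replicate 2 it was 0.267. With the share of counts of the ribosomal RNA precursor Rn45s as a covariate it was 0.355. Slc25a1 had a log2 fold change of 0.18 with an interval of -0.01 to 0.36 (edgeR adjusted p = 0.308). For the other members the 95% intervals of the palmitate difference were -0.06 to 0.21 for Cs, -0.13 to 0.18 for Acly, -0.26 to 0.10 for Acss2, -0.17 to 0.22 for Pdha1, -0.11 to 0.17 for Crat and -0.11 to 0.15 for Acat1. Each of these 6 had an edgeR adjusted p of at least 0.578, and the signs for Acly, Pdha1 and Acat1 turned negative when 3D palmitate replicate 3 was left out.

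**Figure D3:**
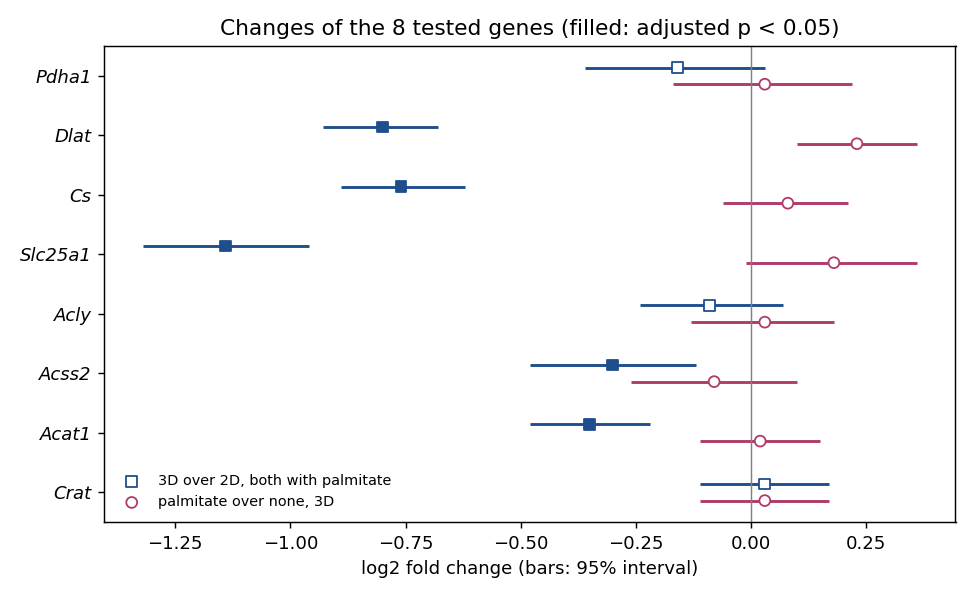
Log2 fold changes of the 8 tested genes with 95% intervals, as squares for 3D palmitate against 2D palmitate and circles for 3D palmitate against 3D, filled where the adjusted p was under 0.05. The 5 filled squares are Dlat, Cs, Slc25a1, Acss2 and Acat1, all below 0, and no circle is filled.

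The genes around these 10 were read from 7 lists of 78 genes in all, of which 71 were tested. In 3D palmitate against 2D palmitate 50 of the 71 (70.4%) passed, 20 higher and 30 lower. This is near the 68.3% of all tested genes that passed, 34.5% higher and 33.9% lower. The same shares of all genes stand beside the counts of the single lists below. The median log2 fold change of the 71 was -0.13, beside 0.01 for all tested genes. Of the other genes of the pyruvate dehydrogenase complex and its regulators, 12 of 14 tested passed, 3 higher and 9 lower, and their median was -0.43. The subunits followed the direction of Dlat, with log2 fold changes of -0.47 for Pdhb, the partner of Pdha1, -0.52 for Pdhx, which tethers the third enzyme, and -0.58 for that enzyme, Dld (edgeR adjusted p of 7.42e-06, 6.47e-05 and 6.04e-06). Of the genes that build the lipoyl group carried by Dlat, Lias, which inserts its sulfur atoms, was lower (-0.66 ± 0.0698, SE), as was the lipoyltransferase Lipt1 (-0.98 ± 0.120). Lipt2, which attaches the octanoyl precursor, was at 0.26 with an edgeR adjusted p of 0.182, and passed when the trend with GC content and length was removed. Higher in spheroids were Pdk2, a kinase that switches the complex off (log2 fold change 1.62 ± 0.182, from 1.82 to 5.36 CPM, edgeR adjusted p = 1.87e-06), Pdpr, a regulatory subunit of the phosphatase that switches it on (1.77 ± 0.168, edgeR adjusted p = 3.30e-07), and Pdp1, a catalytic subunit of that phosphatase (0.40 ± 0.0892). The other catalytic subunit, Pdp2, was lower (-0.41, edgeR adjusted p = 0.00905), but did not pass without 3D palmitate replicate 1. The kinases Pdk1 and Pdk3 were lower, at -0.44 and -0.61, and Pdk4 had at most 3 counts per library.

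Among the enzymes of citrate, isocitrate and malate, 12 of 13 tested genes passed, 4 higher and 8 lower, and the median log2 fold change was -0.23. The lower genes included Mdh2, which makes the oxaloacetate used by Cs (0.501 times, from 558 ± 31.2 to 278 ± 37.4 CPM, SD, n = 3, edgeR adjusted p = 9.36e-08), and Idh3a, which uses isocitrate (log2 fold change -0.95 ± 0.0580, SE, edgeR adjusted p = 3.46e-09). Me2, the mitochondrial malic enzyme, fell too (-0.99), as did the cytosolic malate dehydrogenase Mdh1 (-0.21, edgeR adjusted p = 0.0102), which did not pass without 2D palmitate replicate 3 or with the trend with GC content and length removed. The higher genes were Slc25a10, the dicarboxylate carrier (0.60), the cytosolic isocitrate dehydrogenase Idh1 (0.32), the cytosolic aconitase Aco1 (0.27) and the cytosolic malic enzyme Me1 (0.23). Slc13a5, the plasma membrane citrate importer, had at most 1 count per library.

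Of the genes of acetate entry, use and release, 4 of 10 tested passed, 2 in each direction, with a median of -0.14. Slc16a1, which carries lactate, pyruvate and acetate, rose by 0.55 ± 0.0631 (SE) and Aldh2, which makes acetate from acetaldehyde, by 0.59 ± 0.0750, while the deacetylases Hdac2 (-0.54) and Sirt2 (-0.25) fell. The call of Sirt2 was lost without 3D palmitate replicate 2 and with the trend with GC content and length removed. The list of carnitine ester genes also holds the fatty acid oxidation enzymes Hadha, Hadhb and Acaa2. It had 5 of 9 genes called, 4 higher and 1 lower, with a median of 0.22. Cpt1a, which commits long-chain fatty acids to mitochondrial oxidation, had the largest change of all 71 genes, from 91.4 ± 4.21 CPM in 2D palmitate to 352 ± 7.97 in 3D palmitate (SD, n = 3), or 3.85 times (edgeR adjusted p = 3.46e-12). Crot, the peroxisomal octanoyltransferase of the same family as Crat, rose by 0.66 ± 0.0789 (SE), and Hadhb of the mitochondrial trifunctional protein fell by 0.51 on the log2 scale.

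Of the ketone body and thiolase genes, 3 of 7 tested passed, all lower, among them Acat2, the cytosolic counterpart of Acat1 (-1.06 ± 0.124, SE, edgeR adjusted p = 2.76e-06), and Oxct1 (-0.41). For the cytosolic users of acetyl-CoA 7 of 8 passed, 4 higher and 3 lower, with a median of 0.23. Fasn, the fatty acid synthase, rose by 0.36 and Mlycd, which returns malonyl-CoA to acetyl-CoA, by 1.17, and Slc33a1, which brings acetyl-CoA into the endoplasmic reticulum, by 0.58. The sterol pathway enzyme Hmgcs1 (-0.37) and the acetyltransferases Naa50 (-0.47) and Nat10 (-0.34) fell, and Acaca, the first enzyme of fatty acid synthesis, was at 0.10 with an adjusted p of 0.456. With the trend with GC content and length removed, Fasn did not pass and Acaca did. In coenzyme A synthesis and transport 7 of 10 passed, 3 higher and 4 lower, with pantothenate kinases on both sides, as Pank3 was higher (1.11 ± 0.117, SE) and Pank1 (-0.93 ± 0.122) and Pank4 (-0.66 ± 0.0781) were lower. The mitochondrial coenzyme A carrier Slc25a42 passed as well (0.66), although its groups overlapped.

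**Figure D4:**
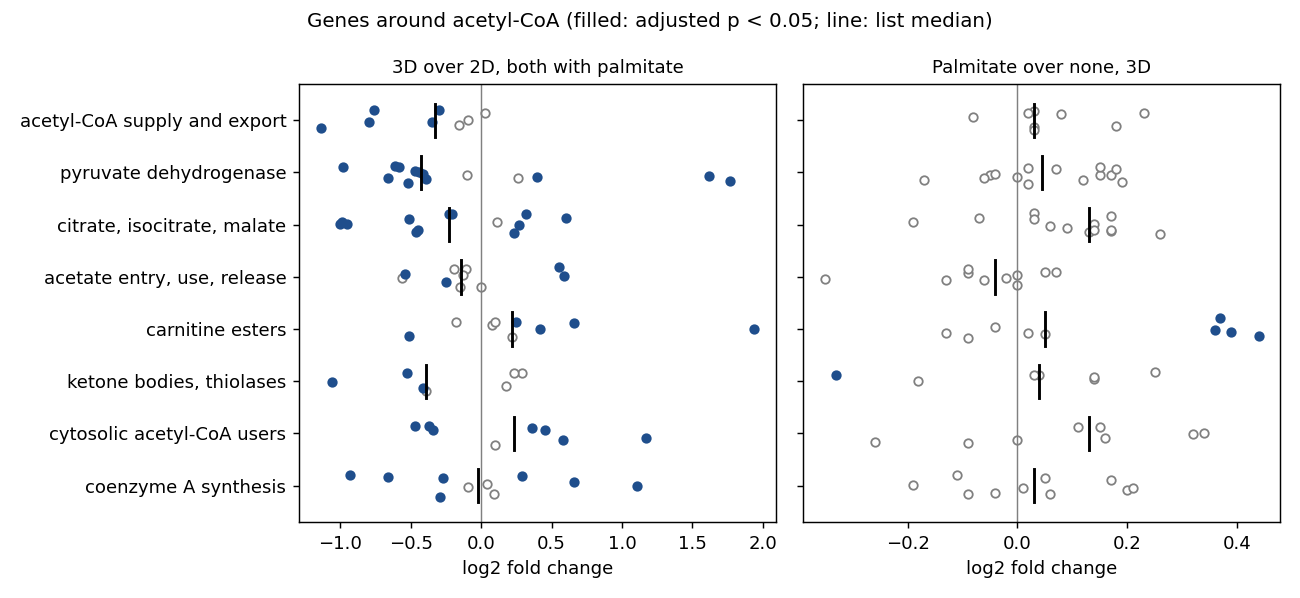
Log2 fold changes of the members and of the tested genes of 7 surrounding lists in both comparisons, with each point a gene, filled where the adjusted p was under 0.05, and a line at each list's median. Filled points lie on both sides of 0 for 3D palmitate against 2D palmitate except among the members and the ketone body genes. In 3D palmitate against 3D the 5 filled points are 4 genes of the carnitine ester list above 0 and Oxct1 below it.

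In 3D palmitate against 3D, 5 of the 71 surrounding genes (7.04%) passed, 4 higher and 1 lower. Of all tested genes 2.19% passed, 1.38% higher and 0.811% lower, and 17.3% had an unadjusted edgeR p under 0.05. The 4 higher genes were among the 9 of the carnitine ester list. Cpt1a rose from 273 to 352 CPM, with a log2 fold change of 0.36 ± 0.0598 (SE, n = 3 per group) and an edgeR adjusted p of 0.00667. Its partners in the import of acyl groups, Cpt2 on the matrix side (0.39, adjusted p = 0.0182) and the carrier Slc25a20 (0.44, adjusted p = 0.0357), rose too, as did the thiolase Acaa2, which releases acetyl-CoA in fatty acid oxidation (0.37, adjusted p = 0.0431). Oxct1, which activates ketone bodies for use, fell by 0.33 on the log2 scale (edgeR adjusted p = 0.0226). These calls were sensitive to the libraries. Leaving out each library in turn gave 0 to 11 calls among the 71, the highest without 3D palmitate replicate 3 and 0 without 3D replicate 2. In these fits Cpt1a missed the threshold only without 3D replicate 2, and Cpt2 without 3D replicate 2 or 3. Slc25a20 and Acaa2 passed only without 3D palmitate replicate 3. Both also missed the threshold with library size scaling, the 2 groups alone and a replicate block. Oxct1 missed it whenever a 3D library or 3D palmitate replicate 1 or 2 was left out. The fit with the share of counts of the ribosomal RNA precursor Rn45s as a covariate gave 0 calls. No gene passed in the lists of pyruvate dehydrogenase (0 of 14 tested, 0 with an unadjusted p under 0.05), citrate, isocitrate and malate (0 of 13, 3 unadjusted), acetate (0 of 10, 0 unadjusted), cytosolic acetyl-CoA users (0 of 8, 3 unadjusted) and coenzyme A synthesis (0 of 10, 0 unadjusted), and DESeq2 also called 0 in each of these 5 lists.

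By Pearson correlation of log2 CPM over the 9 libraries, given as a description, the genes most like Slc25a1 were Klc2 (0.998), Fads3 (0.997) and Cdca8 (0.997), and 1600 genes had a correlation above 0.95. Acly was closest to Zfp462 (0.971), Armc1 (0.971) and Slc39a10 (0.958), and Acss2 to Uxs1 (0.973), Gnb5 (0.962) and Pnpla3 (0.958), with 5 and 4 genes above 0.95. The libraries fall into groups by culture form, which a gene with a large difference between those groups shares with many others.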

How the data were processed

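RNA-seq was performed on 9 libraries of 4T1 cells, and the deposited values are raw counts of reads on each gene, as the authors made them, without normalization. Per the study's methods and processing notes, poly(A) RNA was prepared with a stranded kit, and single-end reads were cleaned with fastq-mcf, inspected with FastQC (version 0.11.9), aligned to GRCm38 with HISAT2 (version 2.1.0) and counted with HTSeq. The annotation release and the strand setting are not given in the sources used here, so the counts of overlapping, antisense and near-identical genes are uncertain.

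Groups and replicate numbers were taken from the sample labels. The fit used edgeR 4.0.16 in R 4.3.3, with filterByExpr for the 3 groups, TMM scaling and a quasi-likelihood model with group as the only term over all 9 libraries. Genes with a Benjamini-Hochberg adjusted p under 0.05 were called. The SE of a log2 fold change was its absolute value divided by the square root of the quasi-likelihood F statistic. The 95% intervals were built from that SE, with the spread estimated over all 9 libraries. Levels are CPM with TMM scaling, and per kilobase levels use the longest GENCODE transcript. Ratios of counts (0.5 added) were compared by two-sided exact permutation tests. Totals of 6595514 to 31177756 counts set the precision, and floors of 3 counts cover counting error alone. Positions are from GENCODE M21 (GRCm38), and 23384 gene names matched by symbol, 670 by synonym and 367 not at all. The procedure was tested on simulated data in which most genes were unchanged. That simulation does not cover 3D palmitate against 2D palmitate, where 68.3% of the tested genes were called.

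The members, lists and tests were chosen with earlier results of these data known. The named genes are the members, the called genes with the smallest p per list, direction and comparison (up to 2), and the 3 genes most like Acly, Acss2 and Slc25a1. Other surrounding genes were named after their values were seen. Alternatives were other scalings, no filter, 2 groups only, DESeq2 1.42.0, a minimum log2 fold change of 0.5, a replicate block, removal of trends with GC content and length (splines with 4 degrees of freedom), the Rn45s share as covariate, and each library left out in turn. Protein sequences were not used here.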

Additional observations from a re-analysis of the deposited data

How the results depend on the processing

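The falls of Slc25a1, Cs and Dlat in 3D palmitate against 2D palmitate passed the threshold in all 18 alternative fits, and Acss2 and Acat1 missed it when a log2 fold change of at least 0.5 was required, as their changes were -0.30 and -0.35. That requirement left 5113 of all genes, 3 members and 26 surrounding genes. Leaving out each library in turn gave 7977 to 8866, 5 to 6 and 47 to 56. Crat reversed to -0.09 when the trend with GC content and length was removed, where Acly passed (-0.22). Of the surrounding genes, Fasn, Acacb, Mdh1 and Sirt2 then no longer passed, and Acaca, Aacs, Acaa1a, Lipt2, Sirt1, Slc25a11 and Slc25a20 did. Pdha1 passed without the filter (-0.19) and without 3D palmitate replicate 3 (-0.29). In 3D palmitate against 3D, where 275 genes passed, the count was 617 with no filter, 77 with the 2 groups alone, 119 with the minimum change, 964 with the trend removed, 44 with Rn45s as a covariate and 71 to 1901 with each library left out, the highest without 3D palmitate replicate 3. The 5 surrounding genes became 3 with library size scaling, 1 with the 2 groups alone, 0 with the minimum change, 8 with the trend removed, 0 with Rn45s and 0 to 11 with each library left out. The members called were 1 in DESeq2, 1 with the trend removed and 0 to 1 with each library left out (1 without 3D palmitate replicate 3), which was Dlat each time. Palmitate log2 fold changes, which with each library left out lay at -0.04 to 0.07 for Acly, -0.10 to 0.11 for Pdha1 and -0.01 to 0.06 for Acat1, reversed for Acat1 (-0.00 with library size scaling and with no filter, -0.01 without 3D palmitate replicate 3), Acly (-0.04 without 3D replicate 1, -0.02 without 3D palmitate replicate 3) and Pdha1 (-0.10 without that library). The cause of these shifts was not tested. For the members, the other alternatives kept direction and side of the threshold. The ratios kept their direction with nothing added to the counts and with each library of the compared groups left out in turn. They were not rerun in the other alternatives, among them the removal of trends with GC content and length. With those trends removed, the log2 fold changes in 3D palmitate against 2D palmitate were -0.31 for Acss2 and -0.22 for Acly. They were -0.09 for Crat and -0.97 for Slc25a1, and -0.87 for Dlat and -0.09 for Pdha1. The ratio of Acss1 to Acss2 was not run because Acss1 had 1 count. No pairing of the libraries by replicate number was seen. Same-number libraries of different groups correlated in their deviations at -0.238 to 0.145 (median -0.0514). Libraries with different numbers correlated at -0.173 to 0.280 (median 0.0267), and 2 of 9 libraries were closest to their own number. A shared culture or batch was not tested. With the replicate block 111 genes, 0 members and 1 surrounding gene passed in 3D palmitate against 3D, and 5 members in the other comparison.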
